A study of Homo sapiens with 8 samples.

Results

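The epidermal differentiation complex is a cluster of genes on human chromosome 1 that encodes much of the outer layer of stratified epithelia. The genes described here are the 45 of its genes outside the *LCE1* subfamily, chosen by name: 11 late cornified envelope (*LCE*) genes, 10 small proline-rich (*SPRR*) genes, *IVL* and *LORICRIN*, 7 genes of the fused-type proteins and 15 *S100* genes. They are 45 of the 20296 genes named on the arrays. RNA was from MCF10A, a line of human breast epithelium that does not form tumours, either p53+/+ or p53−/−, where p53−/− cells lack the p53 transcription factor. Cells were untreated (0 h) or were harvested 12, 24 or 48 h after adriamycin (ADR, also called doxorubicin), a DNA-damaging drug, given at 0.5 µg/ml for 2 h per the labels. The published methods give a higher dose, and the sources do not settle which was used. The 4 groups were thus p53+/+ untreated, p53+/+ with ADR, p53−/− untreated and p53−/− with ADR, and the labels name no other agent or allele. How the p53−/− cells were made, and whether they are 1 clone, is not given in the sources used here. There was 1 single-colour array per genotype and time, 8 in all, so the 3 treated times of a genotype stood in for replicates and no single array has a replicate error.

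Cornification replaces the plasma membrane of a keratinocyte with an envelope of cross-linked proteins. Involucrin, loricrin, the SPRR proteins and the LCE proteins are precursors that transglutaminases join together, and the fused-type proteins, such as filaggrin and trichohyalin, bind and align keratin filaments. The *S100* genes of the cluster encode small calcium-binding proteins, several of which, such as S100A8 and S100A9, are released during stress and inflammation. Mammary cells do not normally cornify, although *IVL* and *SPRR* genes are known from squamous change in many epithelia.

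All levels are the log2 processed signal relative to the 75th percentile of the array, so that 0 is the signal below which 75% of the spots of that array lay. That percentile was 661 to 1015 in signal units on the p53+/+ arrays and 879 to 1199 on the p53−/− arrays, and 49.8 to 62.9% of probes were well above background. The lowest spot signal above background was −4.77 to −4.50 on treated p53+/+ arrays and −5.70 to −5.53 on treated p53−/− arrays. A gene above background in p53−/− cells alone thus need not read higher there. The number of arrays limits the precision. All 8 arrays shared 1 slide, with the genotypes in separate columns, so genotype and column cannot be told apart. Of the 10 spike-in transcripts added at labelling, 6 were detected on each of the other 7 arrays and 0 on the p53+/+ 48 h array.

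*CDKN1A* and *MDM2*, both p53 targets, were higher in treated p53+/+ cells by 3.31 and 3.15 on the log2 scale (limma, adjusted p = 0.000443 and 0.000937, 3 against 3 arrays). On the 0 h array labelled p53+/+, 85.7% of the 5095 probes that differed between treated genotypes lay nearer the treated p53−/− mean than the treated p53+/+ mean. Epithelial and fibroblast markers moved with the same split. The summed level of 12 epithelial markers, in multiples of the 75th percentile, was 533 to 769 on the treated p53+/+ arrays, 275 to 336 on the treated p53−/− arrays and 361 on the 0 h array labelled p53+/+. Of these, 8 were called higher in treated p53+/+ cells, *CDH1* by 3.98. All but 1 were above background on every array: *TP63* was above background on 3. The sum of 5 fibroblast markers was 4.31 to 5.24 on the treated p53+/+ arrays, 52.4 to 67.3 on the treated p53−/− arrays and 54.4 on the 0 h array labelled p53+/+. It was mostly *DCN*, which was 3.67 lower in treated p53+/+ cells. *COL3A1* was not above background on any array. The part of these markers in the results below was not tested. As the 0 h array labelled p53+/+ read close to the p53−/− arrays in these markers, the main comparison was between the treated arrays of the genotypes. It cannot tell a difference in the response to ADR from one that the lines had before treatment.

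The *LCE* members and *IVL* included the largest differences between treated genotypes. *LCE3B*, *IVL*, *S100A14* and *SPRR1B* stood out by size, and 10 of the 45 members differed: 9 were higher and 1, *S100A4*, was lower in treated p53+/+ cells. With time as a block 8 passed, without *LCE2A* and *S100A6*. The 10 are among the 37 members tested, those above background on at least 1 of the 6 treated arrays, and passed an adjusted p of 0.05 (limma, Benjamini-Hochberg adjustment over all 28490 probes tested). Of all probes tested, 17.9% were called, 10.4% higher and 7.48% lower. Of the probes called, 58.2% were higher, a share that ran from 14.6% without scaling to 72.6% with normexp background correction. Without the 24 h arrays only *LCE3B* and *IVL* passed, 6 members passed without the 12 h arrays and 7 without the 48 h arrays, which hold the array with no spike-in signal. Among the 24 members above background on all 6 treated arrays there were the same 10 calls, where 19.0% of all such probes were called. In bulk RNA, fewer cells of a type and less RNA per cell cannot be told apart. The median difference over all 45 members was 0.63 on the log2 scale and over all genes 0.20. Of the 24 members above background on all 6 treated arrays, 22 had a difference above 0, as did 55.2% of all such genes, and the medians were 0.71 and 0.08. This base moved with the scaling: without scaling the median was 0.04 for the members and −0.40 for all genes.

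**Figure D1:**
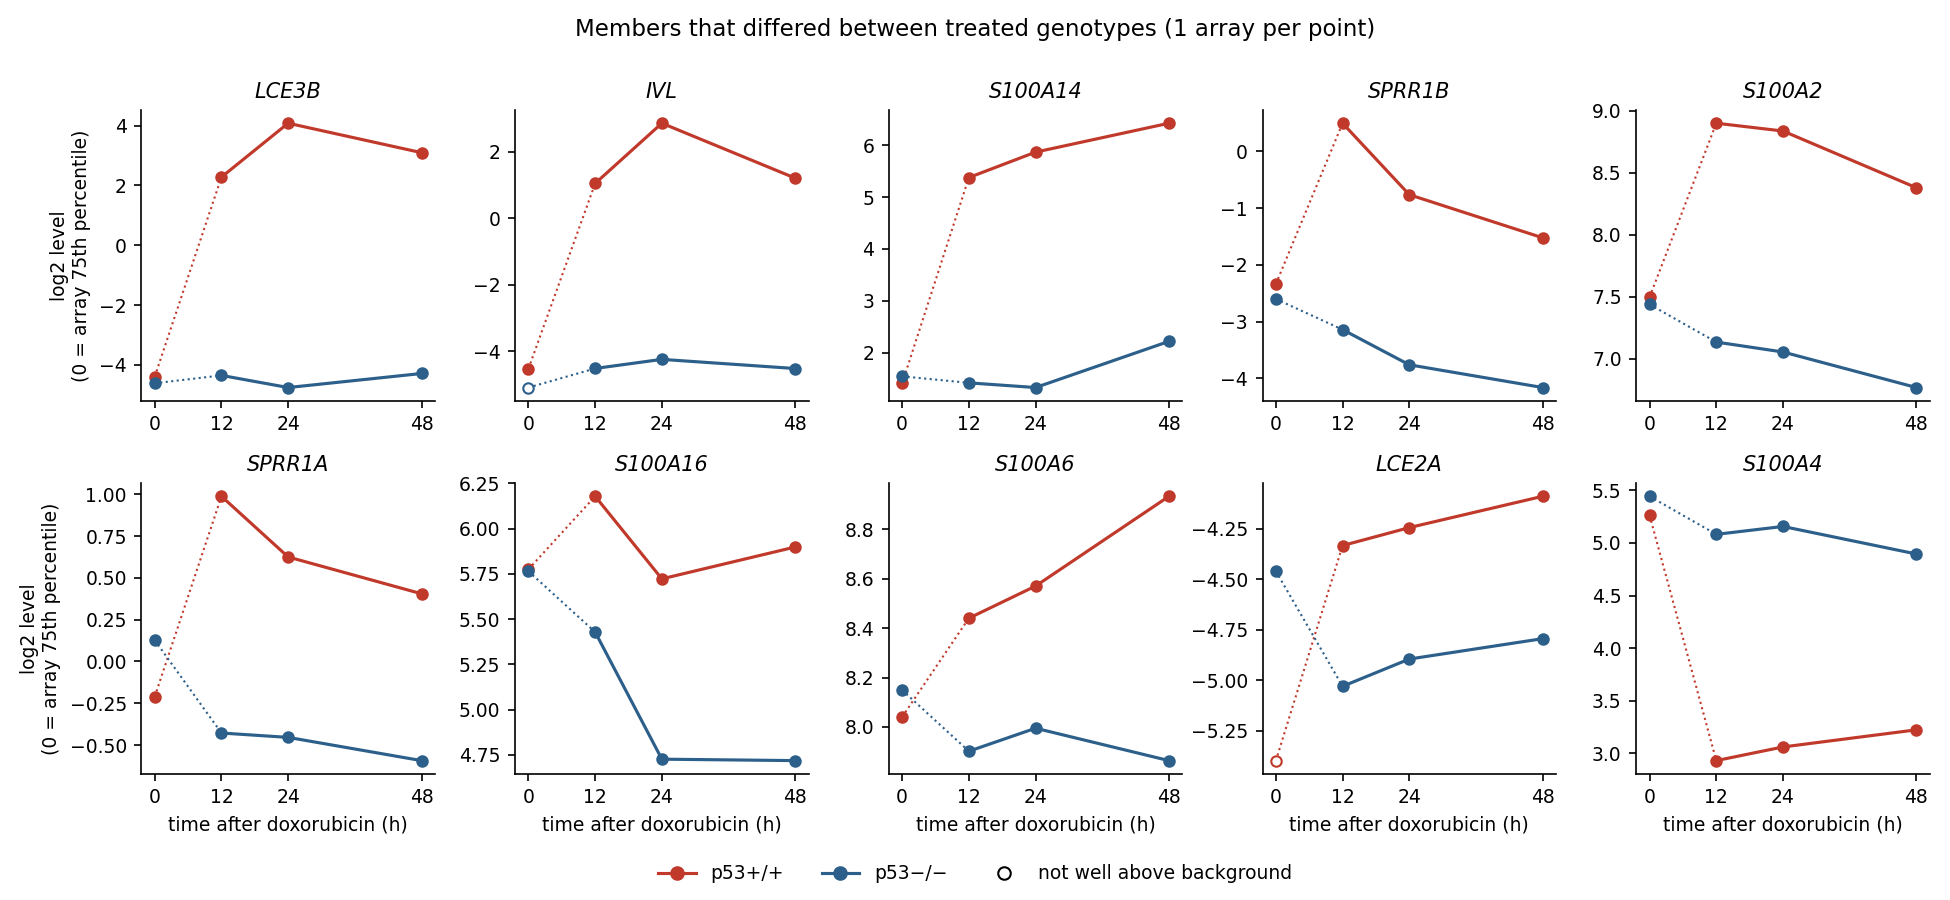
Log2 level relative to the array's 75th percentile (vertical axis, its range differs between panels) against hours after ADR for the 10 members that differed between treated genotypes. Each point is 1 array, red for p53+/+ and blue for p53−/−, open where not well above background, and dotted lines join the 0 h arrays, which did not enter the test. *LCE3B* sat between 2.28 and 4.08 on the treated p53+/+ arrays and between −4.75 and −4.28 on the treated p53−/− arrays.

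Sequence upstream of the members that differed most is shown because the comparison is between cells with and without a transcription factor. RefSeq windows of GRCh38.p14 from 250 bases before to 50 bases after the start were given for 43 of the 45 members. The arrays were annotated on another build, hg19. The bases before the start are printed 5′ to 3′ on the gene's strand, with matches to 3 motifs in capitals: the p53 half-site, the AP-1 site TGANTCA and the CACCC box (CACCC), searched on both strands. The *LCE3B* window is chr1:152613561-152613810 (plus strand), the *IVL* window chr1:152908296-152908545 (plus strand), the *S100A14* window chr1:153616326-153616575 (minus strand) and the *SPRR1B* window chr1:153030953-153031202 (plus strand).
LCE3B: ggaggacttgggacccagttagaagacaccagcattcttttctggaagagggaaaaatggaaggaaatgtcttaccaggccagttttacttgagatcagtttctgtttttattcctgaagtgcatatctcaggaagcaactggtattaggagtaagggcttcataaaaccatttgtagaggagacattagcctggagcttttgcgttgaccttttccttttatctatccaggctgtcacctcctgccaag
IVL: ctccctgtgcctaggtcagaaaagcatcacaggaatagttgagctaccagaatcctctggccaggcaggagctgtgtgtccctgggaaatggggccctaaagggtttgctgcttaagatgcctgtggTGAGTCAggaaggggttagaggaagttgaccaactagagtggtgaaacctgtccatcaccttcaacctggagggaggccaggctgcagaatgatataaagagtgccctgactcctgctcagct
S100A14: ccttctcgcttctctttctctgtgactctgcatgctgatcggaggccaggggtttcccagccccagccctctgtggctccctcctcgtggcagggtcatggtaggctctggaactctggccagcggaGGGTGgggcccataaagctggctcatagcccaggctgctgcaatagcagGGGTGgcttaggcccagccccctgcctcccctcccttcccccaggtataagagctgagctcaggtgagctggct
SPRR1B: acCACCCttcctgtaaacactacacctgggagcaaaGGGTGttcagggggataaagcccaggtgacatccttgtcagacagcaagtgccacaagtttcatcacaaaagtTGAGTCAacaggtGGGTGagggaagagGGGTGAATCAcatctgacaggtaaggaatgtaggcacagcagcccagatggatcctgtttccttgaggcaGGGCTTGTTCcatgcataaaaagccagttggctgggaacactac
None of the 3 motifs was in the *LCE3B* window. The *IVL* window held 1 AP-1 site, which starts 123 bases before the start, and the *S100A14* window held 2 CACCC boxes. The *SPRR1B* window held 7 matches, namely 1 p53 half-site 44 bases before the start, 2 AP-1 sites and 4 CACCC boxes, of which the one at 114 bases overlaps the AP-1 site at 111. Over the 43 members, 5 (11.6%) held a p53 half-site, 17 (39.5%) an AP-1 site and 33 (76.7%) a CACCC box. Of all 27305 such windows, 6.50, 7.80 and 58.9% held them. Among the 10 members that differed, 2 held a p53 half-site (*SPRR1B* and *S100A16*), 4 an AP-1 site and 7 a CACCC box. A match describes letters in the window and says nothing about binding.

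*LCE3B* encodes a late cornified envelope protein and showed the largest difference. Its level was −4.39 on the 0 h array labelled p53+/+, then 2.28, 4.08 and 3.09 at 12, 24 and 48 h. In p53−/− cells it was −4.61 at 0 h and −4.35, −4.75 and −4.28 after ADR. It stayed close to background in p53−/− cells, and the treated groups lay far apart. The treated difference was 7.61 ± 0.45 on the log2 scale (limma estimate ± SE, adjusted p = 0.000439), or 195-fold. The 4 other *LCE3* genes with a probe here, *LCE3A*, *LCE3C*, *LCE3D* and *LCE3E*, lay between −6.23 and −3.23 on every array, and none of them passed the test. *LCE3C* was not above background on any array. *LCE3A*, for example, was above background at 48 h in p53+/+ cells, at −3.23, and read −4.49 in p53−/− cells then.

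*LCE2A* encodes another late cornified envelope protein. It was not above background on the 0 h array labelled p53+/+, at −5.40, and read −4.33, −4.24 and −4.09 after ADR. The p53−/− arrays read −4.46 at 0 h and −5.03, −4.89 and −4.79 after ADR. The treated groups did not overlap, although all levels were close to background. The difference was 0.69 ± 0.18 (adjusted p = 0.0422), or 1.61-fold, and it was 0.09 without scaling (adjusted p = 0.713). With time as a block the adjusted p was 0.0637. At such levels, below −4, the SD among spots of 1 probe was 0.43. The other *LCE2* genes, *LCE4A* and *LCE5A* were above background on at most 2 arrays each. *LCE5A* and *LCE2C* were above background only at 48 h, in both genotypes: *LCE5A* at −3.94 in p53+/+ and −4.43 in p53−/− cells, and *LCE2C* at −4.17 and −4.78. *LCE2B* was above background only at 48 h in p53−/− cells, at −4.92, although p53+/+ cells read −4.69 at 12 h and −5.01 at 48 h. In all, 2 of the 8 *LCE* members tested were higher, where 10.4% of all probes tested were called higher. A further 3, *LCE2D*, *LCE3C* and *LCE4A*, were above background on no array. *LCE* genes of a subfamily are near-identical copies that a probe may not tell apart.

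*IVL*, which encodes involucrin, an early scaffold of the cornified envelope, had the next largest difference. Its level was −4.52 on the 0 h array labelled p53+/+, then 1.04, 2.85 and 1.20. The p53−/− level at 0 h, −5.09, was not above background, and those after ADR were −4.51, −4.24 and −4.52. As for *LCE3B*, 24 h was the highest time in p53+/+ cells, and the treated groups lay far apart. The difference was 6.12 ± 0.48 (adjusted p = 0.000898), or 69.7-fold. *LORICRIN*, which encodes loricrin, the main envelope protein of skin, was not above background on any array and was not tested.

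**Figure D2:**
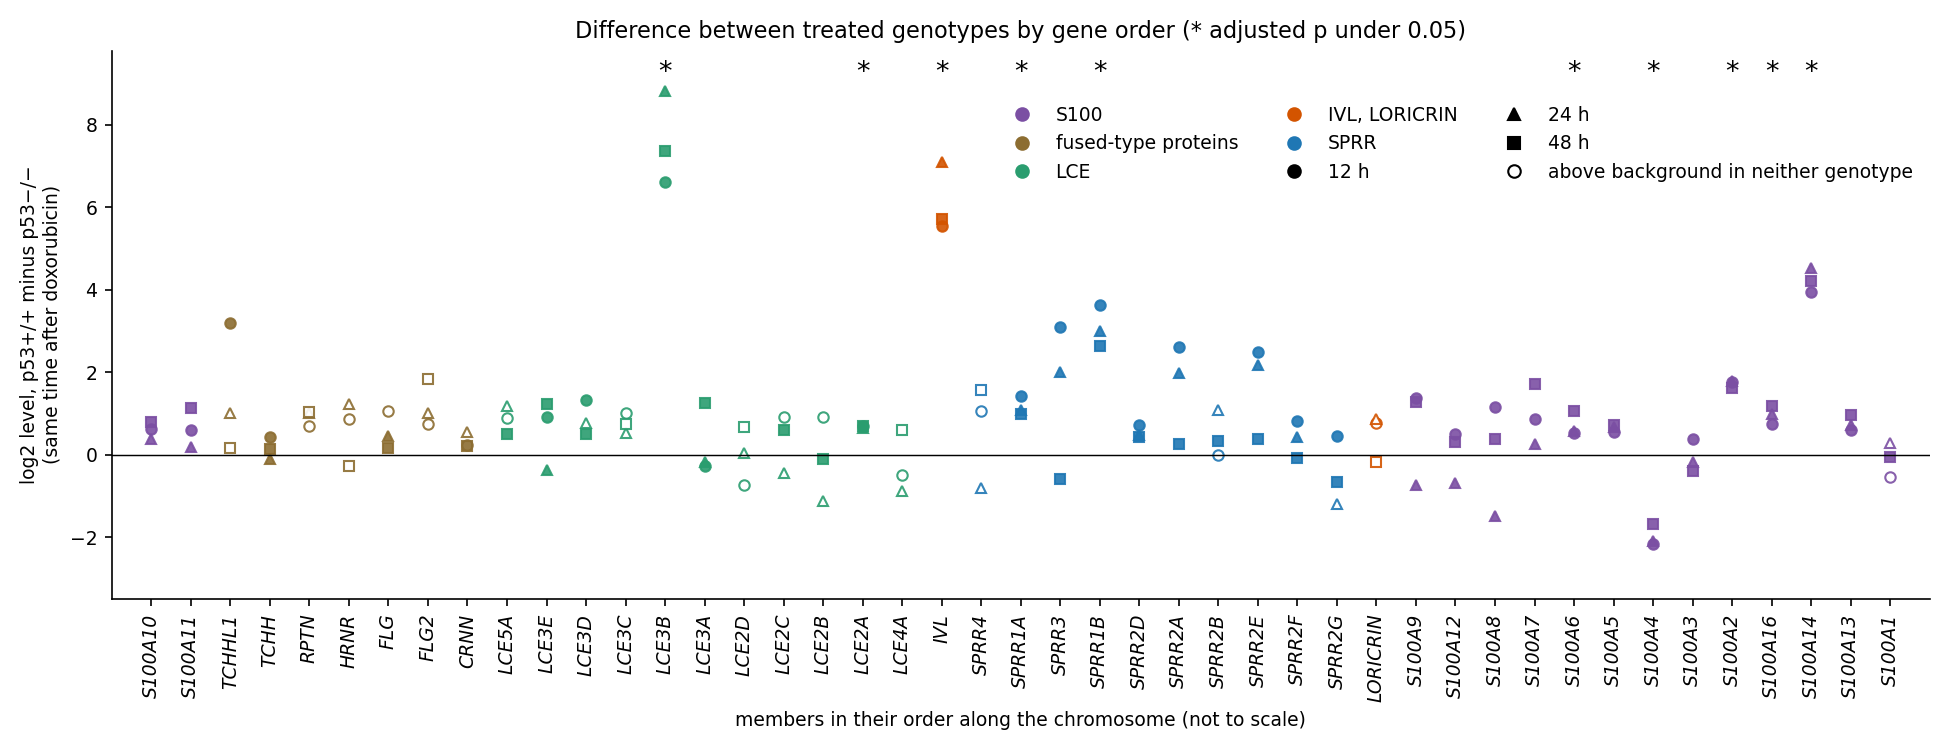
Log2 level in p53+/+ minus that in p53−/− cells at 12, 24 and 48 h after ADR (circles, triangles, squares; vertical axis) for the 45 members in their order along the chromosome (horizontal axis, not to scale), coloured by family. Open symbols were above background in neither genotype at that time, and asterisks mark the 10 members that differed. *LCE3B* and *IVL* stand above their neighbours, and *S100A4*, the lowest, lies between *S100A5* and *S100A3*.

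The small proline-rich genes are precursors that cross-bridge other envelope proteins, and those detected on every array were highest at the earliest treated time in p53+/+ cells. Of the 10 members, 6 were above background on all 8 arrays. The 12 h array was the highest treated array for 6 of these 6 in p53+/+ cells, whereas in p53−/− cells it was so for 4 and the 48 h array for 2. The treated genotypes did not overlap for 5 of them, as for 47.7% of all genes above background on every array. Of the 9 members tested, 2 passed the test, where 17.9% of all probes tested were called.

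*SPRR1B* read −2.34 on the 0 h array labelled p53+/+ and 0.50, −0.76 and −1.52 at 12, 24 and 48 h. In p53−/− cells it read −2.60 at 0 h and −3.14, −3.76 and −4.16. This is the gene whose upstream window held matches to all 3 motifs. Both courses were lower at 48 h than at 12 h, and the gaps between them were 3.64, 3.00 and 2.64 in order of time. The difference was 3.09 ± 0.54 (adjusted p = 0.0124), or 8.53-fold. *SPRR1A*, its close relative, read −0.21 on the 0 h array labelled p53+/+ and 0.99, 0.63 and 0.41 after ADR. Without p53 it read 0.13 at 0 h and −0.43, −0.45 and −0.59. The treated groups did not overlap and the difference was 1.16 ± 0.21 (adjusted p = 0.0141), or 2.24-fold. A second, dimmer *SPRR1A* probe, above background on 3 arrays, gave 2.69 with an adjusted p of 0.0930.

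Of the *SPRR2* genes, *SPRR2A*, *SPRR2D*, *SPRR2E* and *SPRR2F* were highest at 12 h in p53+/+ cells, and none passed the test, although *SPRR2A* and *SPRR2E* passed with normexp. In p53−/− cells *SPRR2A* and *SPRR2E* were highest at 48 h. *SPRR2A* read −1.89 on the 0 h array labelled p53+/+ and −0.16, −1.84 and −2.02 after ADR, and −2.87, −2.78, −3.82 and −2.29 in p53−/− cells. *SPRR2E* read −1.65, 0.09, −1.68 and −1.52, and −2.81, −2.41, −3.85 and −1.90. For both genes the genotypes were furthest apart at 12 h, by 2.62 and 2.49, and closest at 48 h, by 0.27 and 0.37. The treated differences were 1.62 ± 0.60 and 1.68 ± 0.65 (adjusted p = 0.110 and 0.124). *SPRR2D* and *SPRR2F* lay between −1.64 and 0.15, with differences of 0.54 and 0.39. A second, dimmer *SPRR2D* probe, also above background on all 8 arrays, lay between −3.78 and −0.35. It gave a larger difference of 1.59 and did not pass either (adjusted p = 0.124). The *SPRR2* copies are near-identical, so their probes may read each other's transcripts. *SPRR3*, a precursor of internal epithelia such as the oesophagus, read −1.26 and −2.79 at 12 and 24 h in p53+/+ cells. It was not above background on the 0 h array labelled p53+/+ or at 48 h, and was −4.80 to −3.77 in p53−/− cells. Its difference was 1.51 ± 0.75 (adjusted p = 0.209). *SPRR2B* and *SPRR2G* were above background only in p53−/− cells, on 1 and 2 arrays, with 48 h the highest. These calls follow the lower background limit of those arrays in part. *SPRR2B* at 48 h read −5.085 in p53−/− and −4.755 in p53+/+ cells. *SPRR2G* read −5.00 and −4.54 at 12 h, and −4.175 and −4.83 at 48 h. *SPRR4* was above background on no array.

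**Figure D3:**
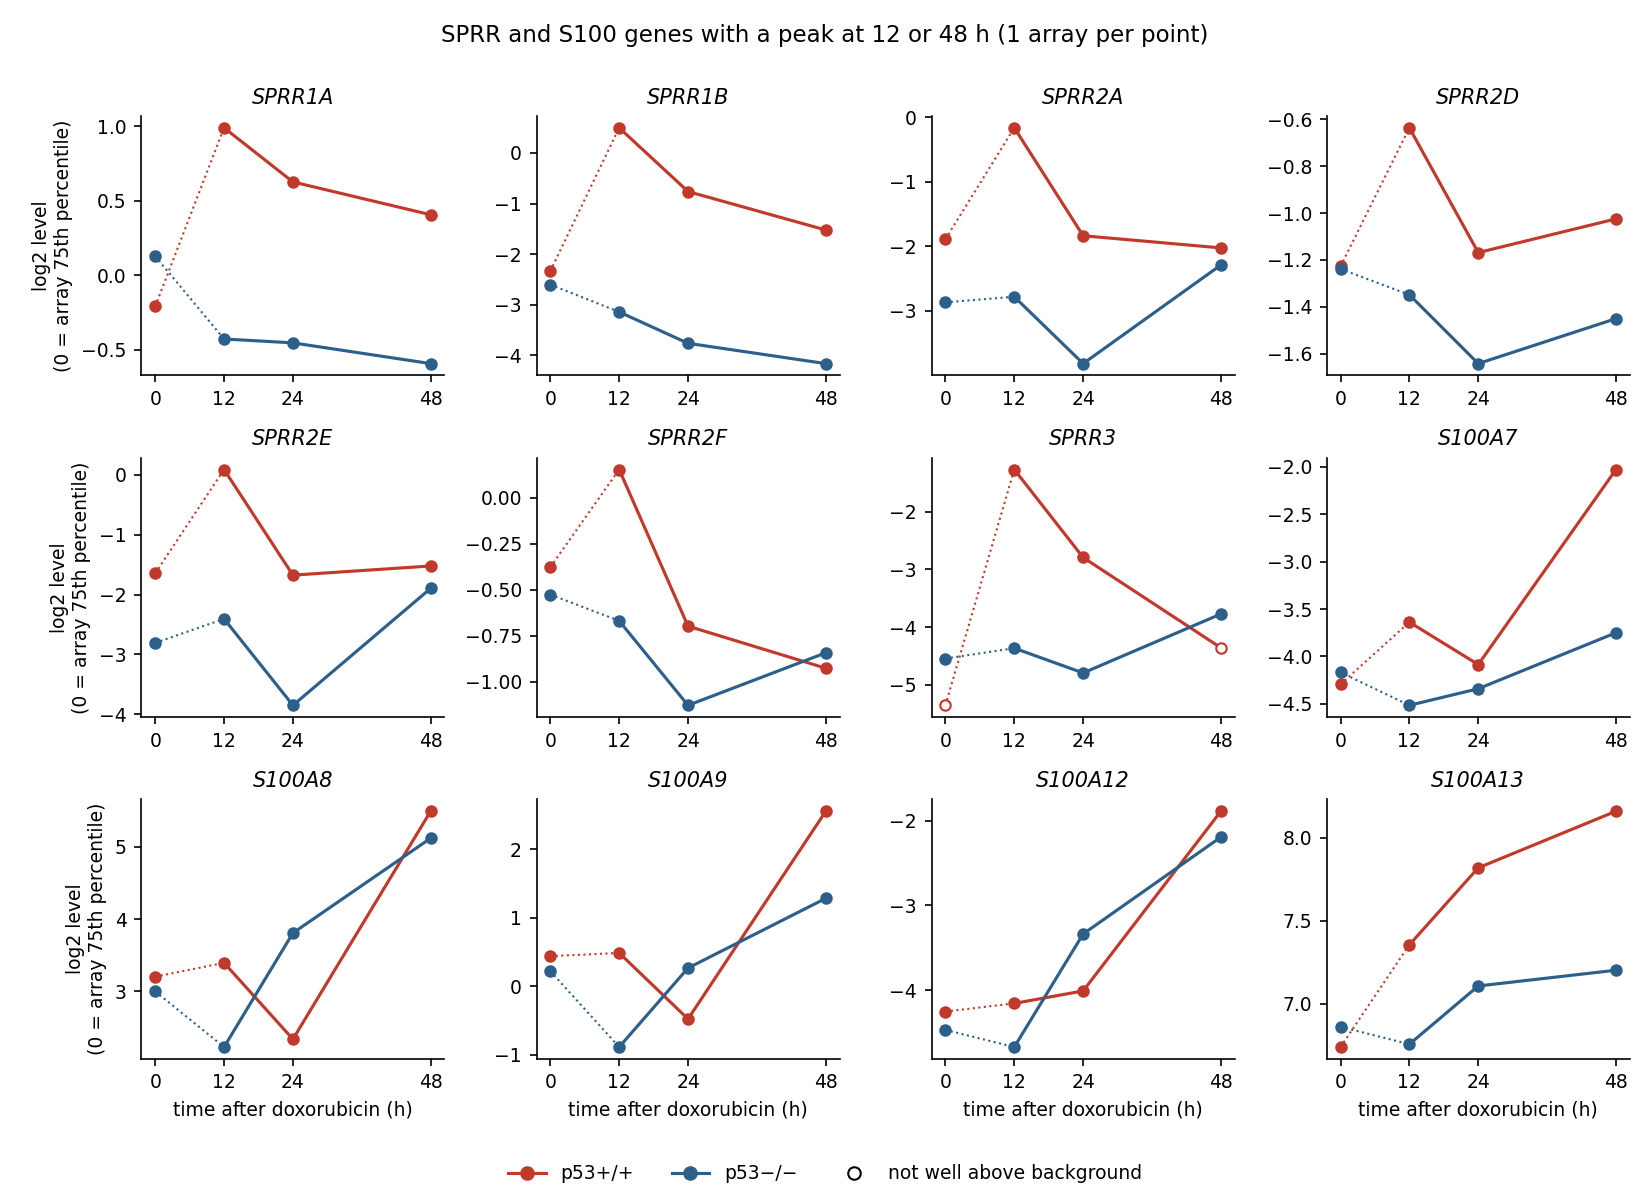
Log2 level relative to the array's 75th percentile (vertical axis, its range differs between panels) against hours after ADR for 7 *SPRR* and 5 *S100* members, 1 array per point, red for p53+/+ and blue for p53−/−. Open points were not well above background, and dotted lines join the 0 h arrays. The 7 *SPRR* genes were highest at 12 h in p53+/+ cells, and *S100A8*, *S100A9* and *S100A12* were highest at 48 h in both genotypes.

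Fused-type proteins, which carry an S100-like domain before long repeats, were scarcely detected. Of the 7 members, 0 were above background on all arrays, and *RPTN*, *HRNR* and *FLG2* were above background on none. Of the 4 tested, 0 passed limma after adjustment and 0 had an unadjusted p under 0.05, although *FLG* and *TCHHL1* passed with normexp background correction, and their mean levels were −5.77 to −4.73. *TCHH*, which encodes trichohyalin of hair follicles, was not above background at 0 h in either genotype, at −5.13 on the array labelled p53+/+ and −7.52 in p53−/− cells. After ADR it read −4.37, −4.28 and −3.72 in p53+/+ and −4.79, −4.18 and −3.87 in p53−/− cells. By this probe it was above background after ADR alone, in both genotypes. A second *TCHH* probe was above background on no array, at −5.85 or lower. *TCHHL1* was above background only at 12 h in p53+/+ cells, at −2.46, and its second probe was not. *FLG*, the precursor of filaggrin, was above background by its chosen probe only at 24 and 48 h in p53−/− cells, at −4.84 and −5.00. The p53+/+ arrays read higher at these times, at −4.38 and −4.84, but were not above their own higher background limit. A second *FLG* probe was above background on 3 arrays. *CRNN*, which encodes cornulin, was above background only at 48 h, at −4.38 in p53+/+ and −4.60 in p53−/− cells.

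The *S100* genes were the family detected most often. Of the 15, 14 were above background on all 8 arrays. By the test 4 of the 15 were higher and 1 was lower in treated p53+/+ cells, where 17.9% of all probes tested were called. Of the 14, 9 did not overlap between treated genotypes, against 47.7% of all such genes. *S100A1* was the exception in detection, above background only at 48 h in p53−/− cells, at −5.32, where p53+/+ cells read −5.38.

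*S100A14*, a member linked to epithelial adhesion and motility, read 1.41 on the 0 h array labelled p53+/+ and 5.38, 5.87 and 6.42 at 12, 24 and 48 h. The p53−/− levels were 1.55 at 0 h and 1.42, 1.33 and 2.22. The difference was 4.23 ± 0.36 (adjusted p = 0.00114), or 18.8-fold. *S100A2*, known as a p53-regulated gene of basal epithelium, read 7.50 on the 0 h array labelled p53+/+ and 8.90, 8.84 and 8.38 after ADR. In p53−/− cells it read 7.44 at 0 h and 7.13, 7.05 and 6.77. The treated groups did not overlap, and the difference was 1.72 ± 0.22 (adjusted p = 0.00452), or 3.30-fold.

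*S100A4*, known for its part in motility and for its expression in mesenchymal cells, was the only one of the 37 members tested that was called lower in treated p53+/+ cells. It read 5.26 on the 0 h array labelled p53+/+ and 2.93, 3.06 and 3.22 after ADR. Without p53 the levels were 5.44 at 0 h and 5.08, 5.16 and 4.89. The difference was −1.98 ± 0.18 (adjusted p = 0.00156), or 3.93-fold lower in treated p53+/+ cells. The summed fibroblast markers were lower on the same arrays, as given above, and their part was not tested.

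*S100A6* and *S100A16* differed by less. *S100A6*, whose probe had the highest mean signal of the members, read 8.04 on the 0 h array labelled p53+/+ and 8.44, 8.57 and 8.93 after ADR, and 8.15, 7.90, 7.995 and 7.86 in p53−/− cells. *S100A16* read 5.78, 6.18, 5.72 and 5.90, and 5.76, 5.43, 4.73 and 4.72. In p53−/− cells the changes of *S100A16* from 0 h were −0.34, −1.04 and −1.05. In p53+/+ cells they were 0.40, −0.05 and 0.12, measured from the 0 h array labelled p53+/+, which is in doubt. For *S100A16* the interaction of genotype and treatment over the 8 arrays did not pass (limma, adjusted p = 0.41). The treated differences of *S100A6* and *S100A16* were 0.73 ± 0.20 and 0.98 ± 0.26 (adjusted p = 0.0493 and 0.0479). With time as a block *S100A6* did not pass (adjusted p = 0.0802) and *S100A16* did (0.0376). Under the other 3 scalings (median, none and quantile) neither passed, with *S100A6* at 0.58, 0.13 and 0.17.

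**Figure D4:**
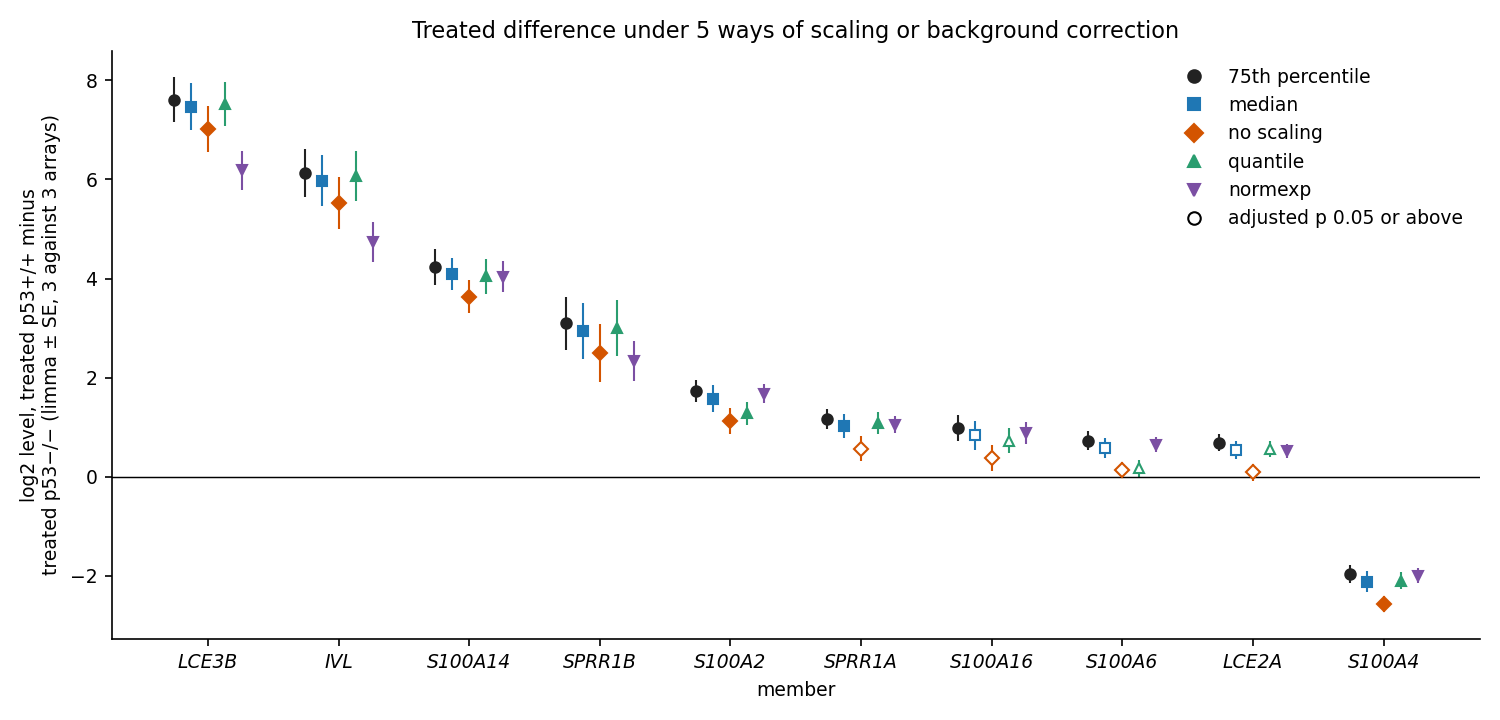
Difference between treated genotypes (limma estimate ± SE, log2, p53+/+ minus p53−/−, 3 against 3 arrays; vertical axis) for the 10 members that differed (horizontal axis), under the 75th percentile, median, no and quantile scaling and under normexp background correction. Open symbols did not pass an adjusted p of 0.05. *LCE3B*, *IVL*, *S100A14*, *SPRR1B*, *S100A2* and *S100A4* passed under all 5, and no value changed sign.

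The other 3 of the 5 members with the highest mean signal did not pass the test. *S100A13*, which takes part in release of proteins without a signal peptide, read 6.74 on the 0 h array labelled p53+/+ and 7.36, 7.82 and 8.16, and 6.86, 6.76, 7.11 and 7.20 in p53−/− cells. *S100A10*, the partner of annexin A2, read 6.65, 7.08, 6.93 and 7.39, and 6.42, 6.46, 6.55 and 6.61. *S100A11* read 5.71, 6.27, 5.88 and 6.73, and 5.64, 5.68, 5.70 and 5.59. Each of the 3 was higher on every treated p53+/+ array than on any treated p53−/− array. The treated genotypes did not overlap, in either direction, for 47.7% of all genes above background on every array. Their differences were 0.76 ± 0.26, 0.60 ± 0.19 and 0.64 ± 0.25 (adjusted p = 0.0953, 0.0805 and 0.126). *S100A10* and *S100A13* passed with normexp, and *S100A10* also with a signal floor and among probes above background on all arrays compared.

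*S100A8* and *S100A9*, the subunits of calprotectin, and *S100A12*, their neighbour, are calcium-binding proteins of myeloid cells and stressed epithelium. They were highest at 48 h in both genotypes. *S100A8* read 3.20 on the 0 h array labelled p53+/+ and 3.39, 2.33 and 5.50 after ADR, and 3.00, 2.22, 3.81 and 5.12 in p53−/− cells. *S100A9* read 0.44, 0.49, −0.48 and 2.55, and 0.22, −0.89, 0.27 and 1.28. *S100A12* read −4.25, −4.16, −4.01 and −1.89, and −4.47, −4.67, −3.34 and −2.20. The 24 h array was the higher one in p53−/− cells for all 3 genes, and the 12 h and 48 h arrays in p53+/+ cells. Their treated differences were 0.02 ± 0.98, 0.63 ± 0.86 and 0.05 ± 0.81, and none passed (adjusted p = 0.991, 0.655 and 0.975). These errors hold the movement over time. Of genes detected on every array, 14.4% in p53+/+ and 7.70% in p53−/− cells were at least 2-fold above 0 h at 48 h. *S100A7*, psoriasin, was also highest at 48 h, at −2.03 in p53+/+ and −3.75 in p53−/− cells. Leukocyte markers summed to 2.70 to 3.78 on treated p53+/+ and 4.21 to 6.39 on treated p53−/− arrays. The sum was mostly *CD14*, which was 1.07 lower in treated p53+/+ cells (adjusted p = 0.0499). *ITGAM* was above background only on the treated p53+/+ arrays and was at least 8.50-fold higher (adjusted p = 0.0119), and *MPO* differed by 2.19 ± 0.73 (adjusted p = 0.0858). *PTPRC*, which encodes the leukocyte surface protein CD45, lay between −4.27 and −3.68 on all 8 arrays, *ELANE* was above background on none, and *LYZ* had no named probe. The part of these markers was not tested.

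From the 0 h arrays, 5 members changed at least 2-fold in 1 direction at all 3 times in p53+/+ cells, a rule of size with no test. *LCE3B*, *IVL*, *S100A14* and *LCE2A* rose past it and *S100A4* fell past it. *LCE2A* was not above background on that 0 h array and did not pass with signals set to the floor of each array. Among all genes, 9.04% rose and 6.86% fell by this rule. All 5 changes start from the 0 h array labelled p53+/+. Measured from the p53−/− 0 h array instead, 7 members passed, without *LCE2A* and with *SPRR1B*, *SPRR2E* and *TCHH*. By the same rule *TCHH* rose and *LCE3D* fell in p53−/− cells, where 2.65% of genes rose and 2.08% fell. *TCHH*, not above background at 0 h, did not pass with the floor. In p53−/− cells *LCE3D* read −3.80 at 0 h, then −4.89, −5.50 and −4.96, and −3.66 on the 0 h array labelled p53+/+ and −3.56, −4.72 and −4.46 after ADR. It was not above background at 24 h in p53−/− cells, or at 24 and 48 h in p53+/+ cells.

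The 0 h arrays labelled p53+/+ and p53−/− were close for these genes and for genes in general. Of the 21 members above background on all 8 arrays, 20 were within 2-fold between the 0 h arrays. The share of all genes within 2-fold was not computed. The median size of the log2 difference was 0.18 for these members and 0.27 for all genes above background on every array. The same members had a median size of 0.88 between the 12 h arrays, where all genes above background on every array had 0.42. The remaining member was *SPRR2E*, which was higher by 1.16 on the 0 h array labelled p53+/+. On that array, 9 of the 10 members that differed after ADR lay nearer the treated p53−/− mean, all but *S100A16*.

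Other genes of cornification were read from lists. Against them stand 10.4% of all probes called higher and 7.48% called lower, a split that moved with the scaling. Of 31 envelope, desmosome and barrier genes outside the complex, 24 were tested by limma, and 9 were higher and 0 lower in treated p53+/+ cells, with 0 lower at an unadjusted p under 0.05 (median difference over the list 0.73, over all genes 0.20). They included *ABCA12*, the lipid transporter of lamellar granules, by 7.09, *DSG3*, a desmosomal cadherin, by 4.68, and *CSTA*, a protease inhibitor of the envelope, by 3.94. *DSC3*, *CLDN1* and *DMKN* were higher by 3.55, 3.19 and 2.12. The cross-linking enzyme *TGM1* (0.60 ± 0.39) and the keratins of this list did not pass or were not detected. *KRT1* and *KRT2* were above background on no array, and *KRT10* differed by −0.08 ± 0.21. Of 38 genes known to regulate the complex, 35 were tested, 10 were higher and 5 lower (median 0.23). *GRHL3*, a grainyhead factor of the barrier, was higher by 3.83. *EHF*, *OVOL1* and *ZNF750* were above background only on treated p53+/+ arrays (3, 1 and 2 of them). *EHF* was at least 14.9-fold higher. *OVOL1* and *ZNF750* were also called higher, but some of their treated p53+/+ values were not above background, so no bound is given. *SATB1*, a chromatin organiser, was at least 2.28-fold lower. *KLF4* and *FOSL1* did not pass (−0.47 ± 0.19 and −0.01 ± 0.19). Of 12 partners, receptors and relatives of S100 proteins, 9 were tested, 1 was higher and 2 were lower (median 0.25). *CD36* was higher by 2.24, and *S100PBP* was lower by 1.40 (−1.40 ± 0.17). *TLR4*, a receptor for S100A8 and S100A9, was not above background on any treated p53+/+ array and was at least 18.8-fold lower. Of 16 neighbours in the cluster that are not among the 45, 14 had a probe, 10 were tested and 6 were higher, 5 of them *LCE1* genes.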

How the data were processed

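RNA of MCF10A p53+/+ and p53−/− cells was measured on 8 single-colour Agilent arrays, grouped by the labels. The authors deposited the scanner output (Agilent Feature Extraction 10.7.3.1, build hg19), from which the processed signal was used, a linear intensity after the software's own background correction. The deposited series table repeated these numbers (503808 of 503808 equal, relative tolerance 1e-06). Precision is limited by how few arrays there are.

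The log2 processed signal minus the log2 75th percentile of the array over 58717 non-control spots was averaged over spots, without spots marked uneven or outlying. Of 42391 probes, 27227 (64.2%) were named by accession through RefSeq genes. A gene was read from its probe with the highest mean, and 9 of the 45 members had more than 1 probe. Treated genotypes were compared with limma 3.58.1 (lmFit, eBayes) on R 4.3.3, with 4 residual degrees of freedom. The fit was tested on simulated data. Changes from 0 h used a rule of 2-fold at all 3 times, with no test.

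Alternatives were other scalings, normexp (offset 50), a signal floor, other filters and probe rules, each time left out, time as a block, an interaction with treatment, and other size rules and baselines. A "not above background" gene has a bound only ("at least"), set against the lowest signal above background on each array. *OVOL1* and *ZNF750*, not above background on every treated p53+/+ array, have none. Values are given for members that passed either rule, and for the 5 with the highest mean signal. Further members and list genes that did not pass were named after their values were seen. Some genes that these rules cover are not reported. The members and lists were chosen with earlier results of these data known. Python 3.11.15, numpy 2.4.6, pandas 2.3.3 and matplotlib 3.10.9 were used.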

Additional observations from a re-analysis of the deposited data

Results flagged for a closer look

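Only the 21 members above background on all 8 arrays were searched for opposite changes from 0 h. For 6 of them the level rose at all 3 times in p53+/+ cells and fell at all 3 times in p53−/− cells. The share of all genes that did so was not computed, so the count has no base to be read against. On the log2 scale the mean change in p53+/+ cells exceeded that in p53−/− cells by 2.83 for *SPRR1B*, 1.66 for *S100A2*, 1.502 for *SPRR1A*, 0.84 for *S100A6*, 0.67 for *S100A5* and 0.53 for *SPRR2D*. For *SPRR2D* and *S100A5* the smallest changes were 0.06 and 0.05 in p53+/+ cells, within the spread among spots. With time points in place of replicates, the interaction of genotype and treatment over the 8 arrays passed for 0 of the 6 (limma, adjusted p of 0.126 to 0.58), with an unadjusted p of 0.00782 for *S100A2*, 0.00997 for *SPRR1A* and 0.0352 for *SPRR1B*, and above 0.05 for the other 3. All 6 values rest on the 0 h array labelled p53+/+, which lay nearer the treated p53−/− mean for 9 of the 10 members that differed after ADR.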

How the results depend on the processing

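Of the 10 members that differed between treated genotypes, *LCE3B* and *IVL* passed under 13 of 13 alternatives to the fit (adjusted p of 4.14e-05 to 0.0204 and 0.000117 to 0.0492), *S100A14* under 12, *S100A2*, *S100A4* and *SPRR1B* under 11, *SPRR1A* under 8, *S100A16* under 6, and *LCE2A* and *S100A6* under 5. No named member changed sign. The count of 10 was 6 without scaling, 20 with normexp, 3 in the interaction over 8 arrays (*LCE3B*, *IVL*, *S100A14*), 6 by the size rule and 15 with a signal floor. Leaving out a time gave 2 to 7: 6 without 12 h, 7 without 48 h, and without 24 h 2, *LCE3B* and *IVL*. The cause was not tested. The 5095 probes called became 9407 without scaling, 9517 with normexp, 8806 with a floor, 12536 without the filter, 488 in the interaction, and 2738, 294 and 2849 without 12, 24 and 48 h. The share higher in p53+/+ was 58.2%, but 44.4% with median, 14.6% with no and 48.2% with quantile scaling, 72.6% with normexp and 70.1% with a floor. It was 78.4% without the filter and 70.4% without 24 h.

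The median member difference of 0.63 was 0.49 with median, 0.035 with no and 0.34 with quantile scaling and 0.81 with a floor; leaving out a time gave 0.59 to 0.77. Removing the filter is no alternative for it, since it already covers all 45 members. The median of all genes moved with the scaling, from 0.10 to 0.24 over the 3 times to −0.62 to −0.23 without scaling.

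The 5 changes from the 0 h array labelled p53+/+ became 9 at 2 of 3 times and 5 to 8 with a time left out. *LCE2A* was lost under the other scalings, normexp and the floor. The 2 in p53−/− cells became 1 with median, no or quantile scaling, a floor or a 3-fold rule, 0 with normexp or a filter on all arrays, 5 at 2 of 3 times, and 2 to 5 with a time left out. The arrays of a time were paired across genotypes by taking time as a block, which left 8 of the 10 members, without *LCE2A* and *S100A6*. The labels give no replicate numbers. Levels below −4 are limited by signal over background.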
